A study of Mus musculus with 9 samples.

Results

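A set of 10 genes that hypoxia-inducible factor (HIF) is known to switch on outside the glycolytic pathway was followed in 3T3-L1 preadipocytes treated with X-3 or X-1. The genes are Higd1a, Bnip3, Bnip3l, Fam162a, Ero1a (Ero1l on the array), Car9, Car12, Mxi1, Ndrg1 and Ankrd37. They were listed by name, with earlier results of these data known, and all 15 of their probes were taken from the 41174 gene probes of the array. 3T3-L1 is a mouse fibroblast line that can turn into fat cells in culture. The groups were X-3 at 70 µM, X-1 at 70 µM and an untreated control, with 3 one-colour arrays each. All 9 cultures were grown with 10% serum, starved of serum for 48 h and sampled 24 h later. The series title calls X-3 and X-1 derivatives of mangiferin, a natural compound of mango and other plants. Whether control cultures received a solvent is not given in the sources used here, and all results come from 1 cell line, 1 dose and 1 time.

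HIF is a pair of proteins, an alpha subunit (Hif1a or Epas1) and the partner Arnt. With oxygen present, prolyl hydroxylases of the Egln family mark the alpha subunit, and Vhl sends it for destruction. When oxygen is low, or the hydroxylases are blocked, the alpha subunit accumulates and the pair binds the core motif ACGTG or GCGTG at its targets. The best known targets drive glycolysis; those described here act on mitochondria, on protein folding, on pH and on the control of growth.

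The promoters of the target genes are shown because HIF binds DNA directly. Whether HIF caused the changes described here was not tested. RefSeq sequences (GRCm38.p6) had an entry for 8 of the 10 genes, and the 250 bases before each transcript start in that promoter table were searched for ACGTG and GCGTG on both strands. The windows of Ankrd37, Car12 and Mxi1 lie inside the bounds of their genes in the same build, so the bases before the outermost end of these 3 genes were not searched. At least 1 match lay upstream of 7 of these 8 genes at one or more starts, against 38.6% of 32851 promoter entries in the table. A gene counts if any of its starts held a match, while the share is over single entries. The genes were listed as known HIF targets, so more matches than in other promoters are no result of these data. At least 2 matches at a start were present for 5 genes, against 16.7% of entries. Those 5 windows are printed first, each 5′ to 3′ on the strand of its gene, with every match in capitals. Higd1a lies at chr9:121857797-121858046, Bnip3 at chr7:138909507-138909756, Fam162a at chr16:36071562-36071811, Ero1a at chr14:45318573-45318822 and Ankrd37 at chr8:45999851-46000100, all on the minus strand. Car9 (chr4:43506776-43507025, plus strand) follows, because it held 1 match and was the gene that rose least.
Higd1a: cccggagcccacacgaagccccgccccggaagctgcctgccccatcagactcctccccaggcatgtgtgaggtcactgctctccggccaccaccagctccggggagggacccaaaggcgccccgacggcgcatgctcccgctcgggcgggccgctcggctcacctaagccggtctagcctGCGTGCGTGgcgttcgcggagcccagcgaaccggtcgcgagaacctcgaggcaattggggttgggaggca
Bnip3: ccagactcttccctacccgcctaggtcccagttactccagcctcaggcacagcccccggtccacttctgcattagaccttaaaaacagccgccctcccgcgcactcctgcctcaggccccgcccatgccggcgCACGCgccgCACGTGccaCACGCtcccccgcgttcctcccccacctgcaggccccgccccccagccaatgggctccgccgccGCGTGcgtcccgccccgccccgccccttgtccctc
Fam162a: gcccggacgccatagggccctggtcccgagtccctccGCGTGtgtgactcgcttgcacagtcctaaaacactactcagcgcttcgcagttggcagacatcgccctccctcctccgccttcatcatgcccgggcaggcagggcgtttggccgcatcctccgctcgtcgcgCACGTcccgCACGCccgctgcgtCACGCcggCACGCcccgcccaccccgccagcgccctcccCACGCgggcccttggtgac
Ero1a: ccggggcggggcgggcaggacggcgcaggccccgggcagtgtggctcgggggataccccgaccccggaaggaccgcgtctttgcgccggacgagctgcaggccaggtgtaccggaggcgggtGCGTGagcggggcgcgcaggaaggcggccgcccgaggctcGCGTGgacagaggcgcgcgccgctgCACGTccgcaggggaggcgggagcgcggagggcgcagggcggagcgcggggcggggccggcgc
Ankrd37: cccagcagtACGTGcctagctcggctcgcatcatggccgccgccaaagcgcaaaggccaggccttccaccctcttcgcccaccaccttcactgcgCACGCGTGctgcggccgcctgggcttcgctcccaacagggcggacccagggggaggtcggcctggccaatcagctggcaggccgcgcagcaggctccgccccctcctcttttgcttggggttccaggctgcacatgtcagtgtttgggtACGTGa
Car9: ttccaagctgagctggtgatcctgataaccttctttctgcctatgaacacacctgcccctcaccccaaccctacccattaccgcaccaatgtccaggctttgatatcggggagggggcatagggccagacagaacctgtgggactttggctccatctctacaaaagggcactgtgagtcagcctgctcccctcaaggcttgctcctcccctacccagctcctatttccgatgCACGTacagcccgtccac
Higd1a held 2 overlapping GCGTG matches, whose first bases are at −70 and −66 from the start. Bnip3 held 5 matches, of which 2 overlap in the palindrome CACGTG, a sequence present in 6.02% of entries and also the E-box read by MYC and MAX. Fam162a held 6 matches, of which 5 begin between −81 and −19. Ero1a held 3 and Ankrd37 held 4, of which 2 overlap and 1 begins at −6. Mxi1 has 3 starts in the table, with 1 match upstream of 2 of them, and Car12 had none in this window. A match is a description of letters and shows no binding.

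**Figure D1:**
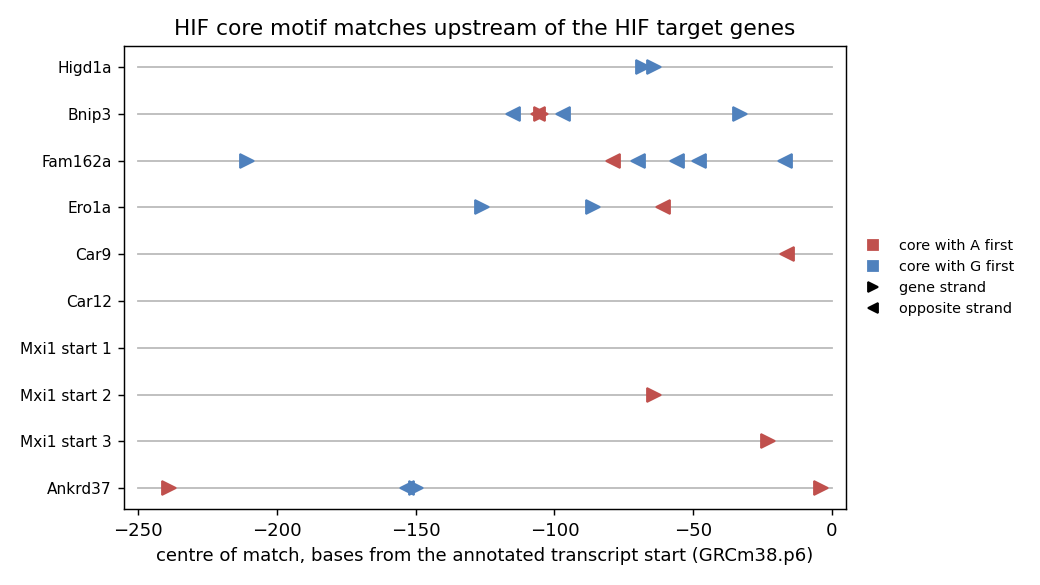
Matches to the HIF core motif in the 250 bases upstream of each transcript start in the promoter table, by distance of the match centre from the start in bases; colour marks the first base of the core and the direction of the triangle marks the strand. Fam162a has 6 matches and Bnip3 has 5, while the windows of Car12 and of the first Mxi1 start, which lie inside these genes as that of Ankrd37 does, have none.

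Levels are given as log2 signal relative to each array's 75th percentile of gene probes, so 0 is the signal at that percentile, and 1 unit is a factor of 2. A change is a difference of group means on that scale, tested with limma over the 25288 probes for which some group had every one of its arrays well above background, with Benjamini-Hochberg adjustment and a threshold of 0.05. The threshold was passed by 54.1% of these probes for X-3 (28.5% rose and 25.5% fell) and by 54.8% for X-1 (28.1% rose and 26.7% fell), so a call alone says little here and the size of a change has to be read with it. Both comparisons share the same control arrays. No gene spot was saturated, and between 57.89% and 67.11% of gene spots were well above background on an array. All 12 preadipocyte or fibroblast markers were well above background on every array, and 4 of them rose and 4 fell with each compound. Ly6a was highest among these changes, at 3.58 with X-3 and 3.39 with X-1, while Pdgfra was at −1.34 with X-3 and −1.36 with X-1. By contrast, the endothelial markers Pecam1, Cdh5 and Kdr were well above background on none. The adipocyte markers Lep and Cfd, the macrophage marker Adgre1 and the epithelial markers Cdh1 and Epcam were also well above background on no array. Some markers of these other cell types did move: over the 4 macrophage markers, of which Cd68 and Csf1r were measured on every array, the summed log2 level ran between −0.64 and −0.51 with X-3, between −0.80 and −0.72 with X-1 and between −1.81 and −1.66 in controls. Of the 4 epithelial markers, Krt8 alone was well above background on every array, at a mean log2 level of −1.23 with X-3, −1.72 with X-1 and −3.61 in controls, while Krt18 was so on 3 X-3, 0 X-1 and 1 control arrays. Over the 7 adipocyte markers, of which Fabp4 alone was measured on every array, the summed log2 level ran between −2.61 and −2.40 with X-3, between −3.07 and −2.75 with X-1 and between −1.20 and −0.71 in controls. Fabp4 had a mean of −3.56 with X-3, −3.91 with X-1 and −1.075 in controls. The other adipocyte markers went the other way, with higher means in both treated groups, but none was well above background on every array of a group. Adipoq was at −5.60 with X-3, −6.07 with X-1 and −7.97 in controls. The part of these markers in the results was not tested. In bulk RNA, more transcript per cell and more cells that hold the transcript cannot be told apart.

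Car12 could not be measured: 1 of its probes was well above background on no array, and the other on 2 X-3 arrays, 1 X-1 array and 0 control arrays. The other 9 genes, with 13 probes, were well above background on all 9 arrays. All 9 rose with X-3, where 28.5% of tested probes did, and all 9 rose with X-1, where 28.1% did. Every one of the 13 probes passed the test, and at all 13 the treated arrays lay above the control arrays. Treated arrays lay wholly above control arrays at 32.2% of all tested probes for X-3 and at 35.7% for X-1, and wholly below at 28.7% for X-3 and 32.3% for X-1. The median change of the 9 genes was 3.35 with X-3 and 3.81 with X-1, against a median over all tested probes of 0.06 with X-3 and 0.09 with X-1. In 7 of the 9 genes the rise was over 8-fold with each compound. By the brightest probe, Ero1a rose most and Car9 least. Within a group the SD of a probe had a median of 0.17 for X-3, 0.13 for X-1 and 0.13 for controls, small against these changes.

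**Figure D2:**
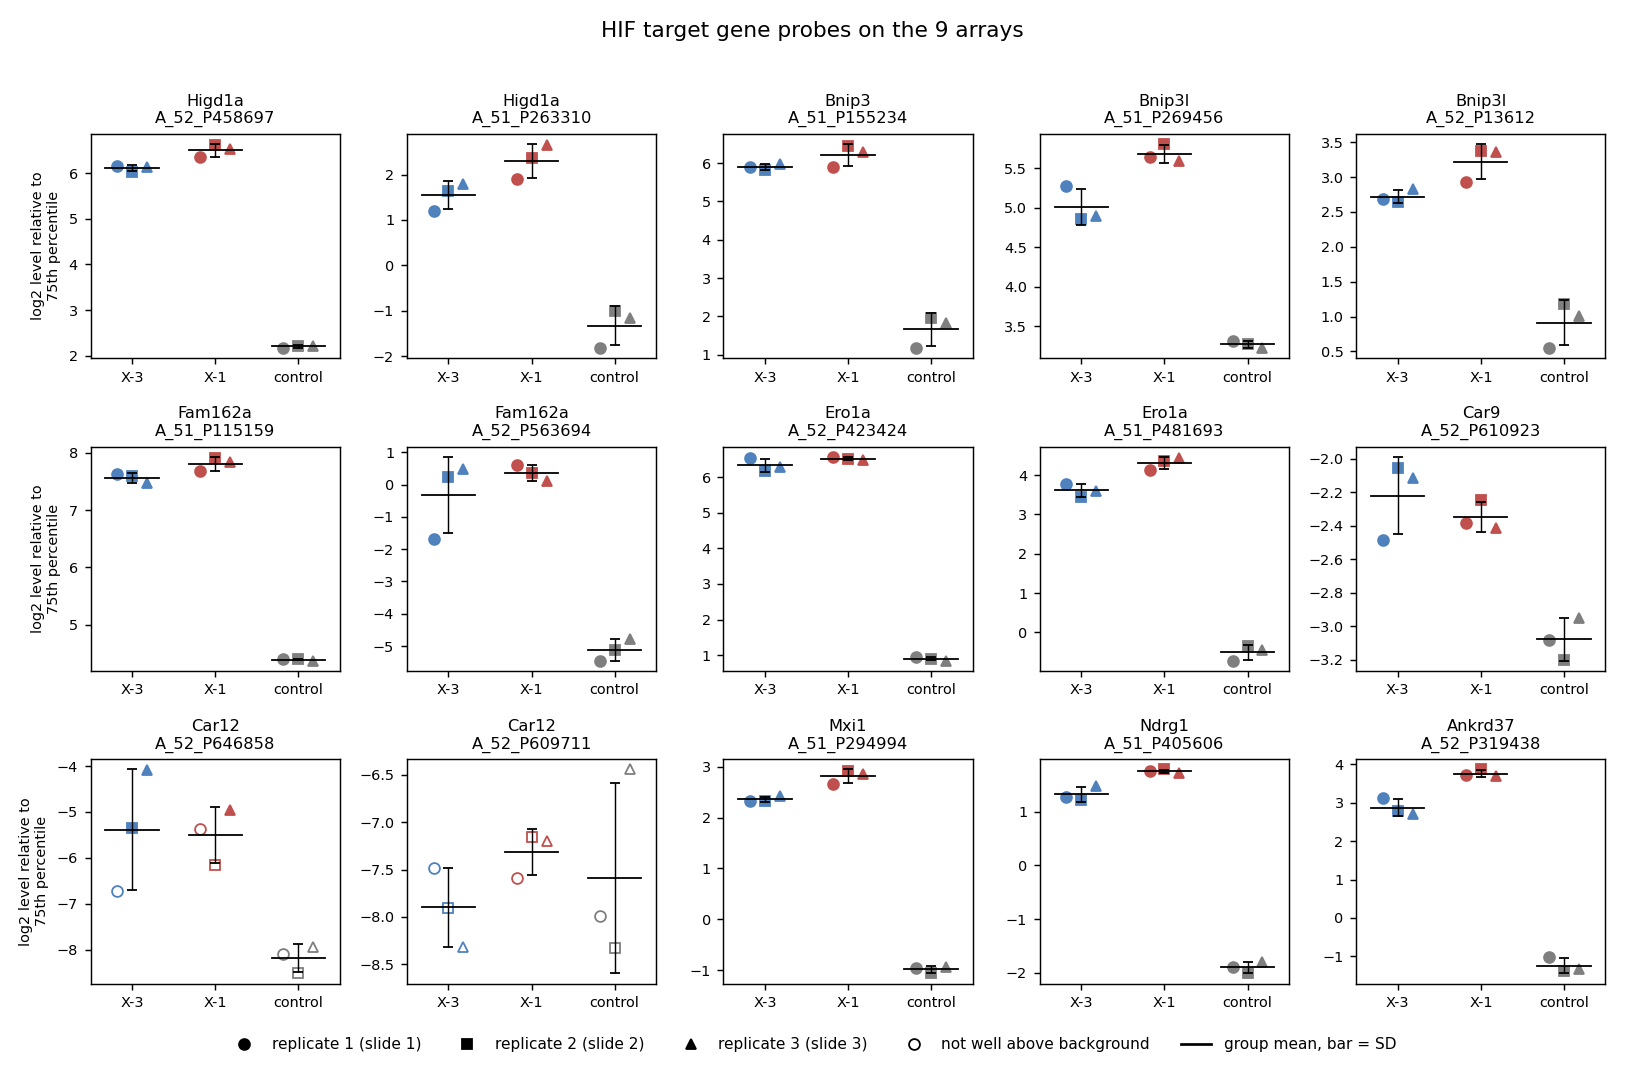
Level of each of the 15 probes on the 9 arrays, as log2 signal relative to the array's 75th percentile, by group (X-3, X-1, control); symbols mark the replicate, which shares a slide across groups, open symbols were not well above background, and the line and bar give the group mean and SD (n = 3). Treated arrays lie above control arrays at all probes but 1, the second Car12 probe, where no array was well above background.

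Of the 10 genes, 4 encode mitochondrial proteins. Higd1a encodes a small protein of the inner mitochondrial membrane that supports respiration and survival when oxygen is short. At its brighter probe (A_52_P458697, chr9:121761621-121761680 in mm9) the log2 level was 6.17, 6.03 and 6.14 with X-3, 6.35, 6.62 and 6.53 with X-1 and 2.17, 2.22 and 2.22 in controls. Every treated array stood far above every control, and no X-3 array reached the lowest X-1 array. The rise was 3.91 ± 0.12 (SE from limma, here and below) with X-3 (15.0-fold, adjusted p = 2.42e-07) and 4.30 ± 0.12 with X-1 (19.7-fold, adjusted p = 1.36e-07). The second probe (A_51_P263310, chr9:121758478-121758537 in mm9) read 1.20, 1.64 and 1.79 with X-3, 1.91, 2.36 and 2.64 with X-1 and −1.82, −0.996 and −1.17 in controls. Its groups did not overlap either, and its rises were smaller, at 2.87 ± 0.27 with X-3 and 3.63 ± 0.27 with X-1.

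Bnip3 and Bnip3l, also called Nix, sit in the outer mitochondrial membrane and tether damaged mitochondria to the autophagy machinery. The Bnip3 probe (A_51_P155234, chr7:146083077-146083136 in mm9) read 5.89, 5.83 and 5.98 with X-3, 5.90, 6.46 and 6.29 with X-1 and 1.17, 1.96 and 1.84 in controls. The controls were less even here than for most of the genes, with replicate 1 the lowest, and treated and control arrays were still wide apart. Bnip3 rose by 4.24 ± 0.22 with X-3 (18.9-fold, adjusted p = 1.91e-06) and by 4.56 ± 0.22 with X-1 (23.6-fold, adjusted p = 9.95e-07). Bnip3l rose less: its brighter probe (A_51_P269456, listed at chr14:67604077-67604088 in mm9) read 5.27, 4.86 and 4.89 with X-3, 5.64, 5.80 and 5.59 with X-1 and 3.31, 3.28 and 3.23 in controls. The 3 groups did not overlap, and X-3 lay between X-1 and control. The change was 1.73 ± 0.14 with X-3 (3.33-fold, adjusted p = 1.52e-05) and 2.41 ± 0.14 with X-1 (5.31-fold, adjusted p = 2.14e-06), and the second probe (A_52_P13612, chr14:67605388-67605447 in mm9) gave 1.81 ± 0.19 with X-3 and 2.31 ± 0.19 with X-1.

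Fam162a encodes a mitochondrial protein linked to cell death in low oxygen. Its brighter probe (A_51_P115159, chr16:36044032-36044091 in mm9) read 7.63, 7.59 and 7.47 with X-3, 7.68, 7.92 and 7.84 with X-1 and 4.40, 4.40 and 4.37 in controls. The control arrays were the most even of any group at the 13 probes, with an SD of 0.02. The rise was 3.18 ± 0.12 with X-3 (9.04-fold, adjusted p = 4.92e-07) and 3.42 ± 0.12 with X-1 (10.72-fold, adjusted p = 2.5e-07). A second probe (A_52_P563694, chr16:36068392-36068451 in mm9), designed on a separate cDNA record of the gene, read −1.68, 0.23 and 0.49 with X-3, 0.60, 0.37 and 0.11 with X-1 and −5.45, −5.11 and −4.77 in controls. X-3 replicate 1 stood well below the other 2 X-3 arrays at this probe, and its controls were close to the dimmest signals above background, which were −5.92, −6.30 and −5.83 on the control arrays. The change there was 4.79 ± 0.50 with X-3 (adjusted p = 6.49e-05) and 5.47 ± 0.50 with X-1 (adjusted p = 2.55e-05).

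Of 7 other genes for mitochondria and autophagy, 1 rose and 2 fell with each compound. Over all tested probes 28.5% rose and 25.5% fell with X-3, and 28.1% rose and 26.7% fell with X-1. Counts this small say little about this group of genes. Sqstm1, the autophagy adaptor p62, rose by 0.76 ± 0.14 with X-3 and 0.81 ± 0.14 with X-1. Fundc1, another mitophagy receptor, was lower, at −0.74 ± 0.15 with X-3 and −0.90 ± 0.15 with X-1. Bcl2, which BNIP3 proteins bind, was at −2.38 ± 0.16 with X-3 and −1.75 ± 0.16 with X-1 at its brightest probe, while 2 other probes of it did not pass the test with either compound. Higd2a, a relative of Higd1a, was at 0.24 ± 0.22 with X-3 and −0.25 ± 0.22 with X-1, neither past the threshold. Becn1, Map1lc3b and Pink1 did not pass it either at their brightest probes. Pink1 had 1 probe alone, but second probes of Becn1 and Map1lc3b did pass. The Becn1 one was lower, at −1.45 with X-3 and −1.86 with X-1, and the Map1lc3b one higher, by 0.93 with X-3 and 1.21 with X-1.

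Ero1a, the oxidase of the endoplasmic reticulum that reloads protein disulfide isomerase for disulfide formation, had the largest rise among the 9 genes by their brightest probes. Its brighter probe (A_52_P423424) read 6.53, 6.18 and 6.29 with X-3, 6.58, 6.51 and 6.50 with X-1 and 0.93, 0.90 and 0.84 in controls. Treated arrays were far above controls, and X-3 replicate 1 lay among the X-1 arrays. The change was 5.44 ± 0.12 with X-3 (43.4-fold, 95% interval 35.7 to 52.8, adjusted p = 2.24e-07) and 5.63 ± 0.12 with X-1 (49.6-fold, 95% interval 40.8 to 60.4, adjusted p = 1.08e-07). This probe's listed range covers 1704 bases (chr14:45905723-45907426 in mm9). The second probe (A_51_P481693, chr14:45904192-45904251 in mm9) read 3.78, 3.45 and 3.60 with X-3, 4.13, 4.36 and 4.44 with X-1 and −0.72, −0.35 and −0.46 in controls. Here the 3 groups were separate, with X-3 between X-1 and control. This probe rose by 4.12 ± 0.15 with X-3 and 4.82 ± 0.15 with X-1. The paralogue Ero1b rose by 2.74 ± 0.12 with X-3 and 3.27 ± 0.12 with X-1, and P4hb, protein disulfide isomerase itself, by 1.16 ± 0.11 with X-3 and 1.11 ± 0.11 with X-1. Pdia4, another isomerase of that family, fell by 0.84 with X-3 (adjusted p = 0.00581) and was at −0.48 ± 0.19 with X-1 (adjusted p = 0.0646).

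Car9 and Car12 are membrane carbonic anhydrases that turn carbon dioxide into bicarbonate and protons at the cell surface, and human CA9 is widely used as a marker of hypoxic tumours. Here Car9 moved least of the 9 genes. Its probe (A_52_P610923, chr4:43526023-43526082 in mm9) read −2.49, −2.06 and −2.12 with X-3, −2.38, −2.25 and −2.41 with X-1 and −3.08, −3.20 and −2.95 in controls. Treated arrays were all above controls, by less than 1 log2 unit on average, and the X-3 and X-1 arrays were mixed. The change was 0.86 ± 0.15 with X-3 (1.81-fold, adjusted p = 0.00117) and 0.73 ± 0.15 with X-1 (1.66-fold, adjusted p = 0.0027). A rise of at least that size was seen at many probes: 19.1% of tested probes rose more with X-3 and 23.8% with X-1. The Car9 calls depended on scaling. When the arrays were scaled on spike-in RNA, which could be measured on the arrays of replicates 2 and 3, the median of all tested probes moved to −0.61 with X-3 and −0.83 with X-1, against 0.09 with X-3 and 0.07 with X-1 on the same arrays with the usual scaling, and Car9 was at 0.29 with X-3 (adjusted p = 0.41) and −0.15 with X-1 (adjusted p = 0.654). On those arrays with the usual scaling Car9 was at 0.99 with X-3 and 0.75 with X-1. Relative to the spike-in medians it was at 0.90 with X-3 and 0.67 with X-1. The other 8 genes kept their direction and their call with that scaling and with median, quantile and normexp settings.

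Car12 stayed near background. Its brighter probe (A_52_P646858) read −6.71, −5.35 and −4.09 with X-3, −5.38, −6.16 and −4.97 with X-1 and −8.09, −8.51 and −7.93 in controls. The treated readings were higher, but 2 of the X-3 and 1 of the X-1 readings were well above background, and 0 in controls. No fold and no test are given, because the probe did not pass the filter. Among other genes for pH, Car2, a cytosolic carbonic anhydrase, was at least 1.90-fold lower with X-1 (adjusted p = 0.00198) and at −0.71 ± 0.29 with X-3 (adjusted p = 0.0698). Car13 was higher with X-1 by 0.43 ± 0.15 and at 0.33 ± 0.15 with X-3 (adjusted p = 0.0896), and Slc4a7, a bicarbonate transporter, passed the threshold with neither at its brightest probe. Its other probes disagreed in sign: 1 was at 1.04 with X-3 (not called) and rose by 1.23 with X-1, and 1 fell by 0.63 with X-3 and was at −0.41 with X-1 (not called).

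The last 3 genes act on growth control or have no settled role. Mxi1 pairs with MAX and opposes MYC at its target genes. Its probe (A_51_P294994, chr19:53446996-53447055 in mm9) read 2.34, 2.33 and 2.42 with X-3, 2.67, 2.92 and 2.86 with X-1 and −0.97, −1.06 and −0.93 in controls. The 3 groups were narrow and separate, so that the lowest X-1 array exceeded the highest X-3 array. The change was 3.35 ± 0.12 with X-3 (10.2-fold, adjusted p = 4.71e-07) and 3.81 ± 0.12 with X-1 (14.0-fold, adjusted p = 2.08e-07). In the MYC network, 3 of 6 other genes rose and 1 fell with each compound. The shares over all tested probes were 28.5% up and 25.5% down with X-3, and 28.1% up and 26.7% down with X-1. So few genes say little about the network as a whole. Myc itself rose by 1.61 ± 0.18 with X-3 and 1.97 ± 0.18 with X-1, Mxd1 by 1.42 ± 0.15 with X-3 and 1.83 ± 0.15 with X-1, and Mnt by 1.15 ± 0.16 with X-3 and 1.28 ± 0.16 with X-1. Mxd4 was lower at its brightest probe, at −0.41 ± 0.14 with X-3 and −0.79 ± 0.14 with X-1, and its other probes disagreed, 1 of them being higher with X-3 (adjusted p = 0.00111) and with X-1 (adjusted p = 0.0046). Max and Mlx passed the threshold with neither compound at their brightest probes, and a second Mlx probe was lower with X-1, at −0.73 ± 0.19.

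Ndrg1 encodes a stress-responsive cytoplasmic protein, named for its repression by N-myc, that is known as a metastasis suppressor in human tumours. Its probe (A_51_P405606, chr15:66761057-66761116 in mm9) read 1.28, 1.22 and 1.47 with X-3, 1.75, 1.79 and 1.73 with X-1 and −1.88, −2.01 and −1.80 in controls. The X-1 arrays agreed to within 0.03 (SD), and all lay above the X-3 arrays. The change was 3.22 ± 0.12 with X-3 (9.31-fold, adjusted p = 4.92e-07) and 3.65 ± 0.12 with X-1 (12.6-fold, adjusted p = 2.2e-07). Its relatives did not move as one: Ndrg2 was not well above background in any control and rose at least 4.23-fold with X-3 (adjusted p = 7.55e-06) and at least 4.32-fold with X-1 (adjusted p = 5.65e-06). Ndrg4 was at −1.91 ± 0.18 with each compound. Ndrg3 was lower at its brightest probe, at −0.76 ± 0.16 with X-3 and −0.98 ± 0.16 with X-1, and 2 other probes of it passed the threshold with neither.

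Ankrd37 encodes a small ankyrin-repeat protein whose function is little known. Its probe (A_52_P319438, chr8:47082404-47082463 in mm9) read 3.13, 2.79 and 2.70 with X-3, 3.71, 3.86 and 3.70 with X-1 and −1.01, −1.39 and −1.32 in controls. All X-3 arrays lay between the X-1 arrays and the controls. It rose by 4.11 ± 0.16 with X-3 (17.3-fold, adjusted p = 5.55e-07) and by 5.00 ± 0.16 with X-1 (31.9-fold, adjusted p = 2.1e-07), next to Ero1a in size among the 9 genes with X-1 by their brightest probes.

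**Figure D3:**
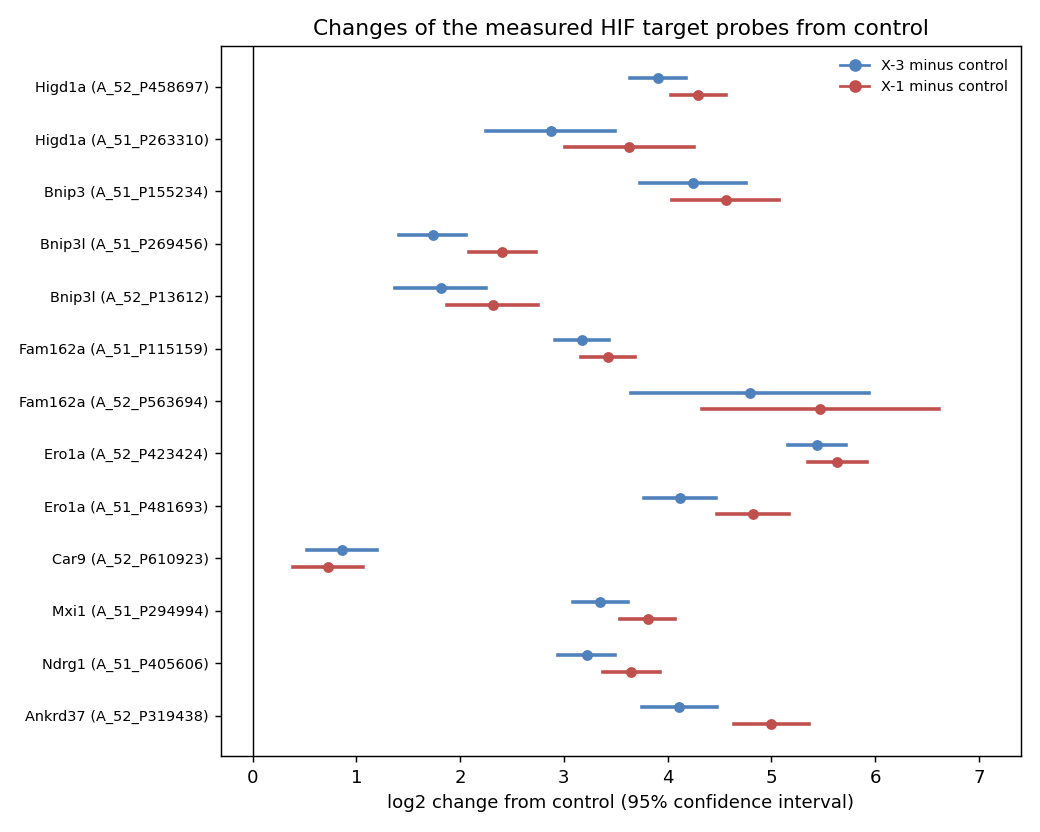
Change from control, in log2 units, at the 13 measured probes with X-3 (above, blue) and X-1 (below, red); points are differences of means of 3 arrays and bars are 95% confidence intervals from limma. All intervals lie above 0, and Car9, at 0.86 with X-3 and 0.73 with X-1, lies nearest to it.

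X-3 and X-1 were compared directly at the same dose and time. The fitted difference, X-3 minus X-1, was negative at 12 of 13 probes and positive for Car9 alone. It passed the threshold as lower in X-3 at the brightest probe of 3 of 9 genes and at 4 of 13 probes, against 3.33% of all tested probes, and as higher at 0 probes, against 5.74%; 9.07% of tested probes were called in either direction. At 9 of 13 probes all X-3 arrays lay below all X-1 arrays, against 13.1% of tested probes, with 17.5% the other way round. The median difference over the 9 genes was −0.39, against −0.01 over all tested probes. Ankrd37 differed most, at −0.89 ± 0.16 (adjusted p = 0.0145), with −0.59, −1.07 and −0.9999 on slides 1, 2 and 3. Bnip3l was lower in X-3 at its brighter probe, at −0.67 ± 0.14 (adjusted p = 0.0242), and its second probe, at −0.50 ± 0.19, did not pass (adjusted p = 0.141). Mxi1 was at −0.46 ± 0.12 (adjusted p = 0.0454, and 0.0611 with the replicate block). Ero1a differed at its second probe, at −0.70 ± 0.15 (adjusted p = 0.0279), and not at the brighter one, at −0.19 ± 0.12.

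The remaining differences did not pass the threshold, which does not show that the compounds act alike. Ndrg1 was at −0.43 (95% interval −0.71 to −0.16, adjusted p = 0.0582) and the brighter Higd1a probe at −0.39 (−0.66 to −0.12, adjusted p = 0.0754). Both intervals exclude 0 before adjustment. So did those of the second Higd1a probe, at −0.76 (−1.38 to −0.14, adjusted p = 0.121), and of the second Bnip3l probe (−0.94 to −0.06). Over all 13 probes, called or not, 8 intervals excluded 0. For Bnip3 the interval was −0.83 to 0.20, for the brighter Fam162a probe −0.51 to 0.02, for the brighter Ero1a probe −0.48 to 0.09 and for Car9 −0.21 to 0.47. Slide 1, scanned on another day and read with an earlier software version, gave the smallest gap, in that the median over the 9 genes was −0.18 on slide 1, −0.59 on slide 2 and −0.37 on slide 3. Without slide 1 the number of genes called lower in X-3 was 7 of 9, but calls were then far more frequent over all 25288 tested probes too, with 4987 lower and 4748 higher. Without X-3 replicate 1 it was 4, without control replicate 3 it was 1, and without X-1 replicate 2, X-1 replicate 3, X-3 replicate 2 or X-3 replicate 3 it was 0. At 11 of 13 probes the difference had the same sign on all 3 slides. The share over all tested probes is not given here, and the 13 probes stand for 9 genes, so this count says little alone.

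**Figure D4:**
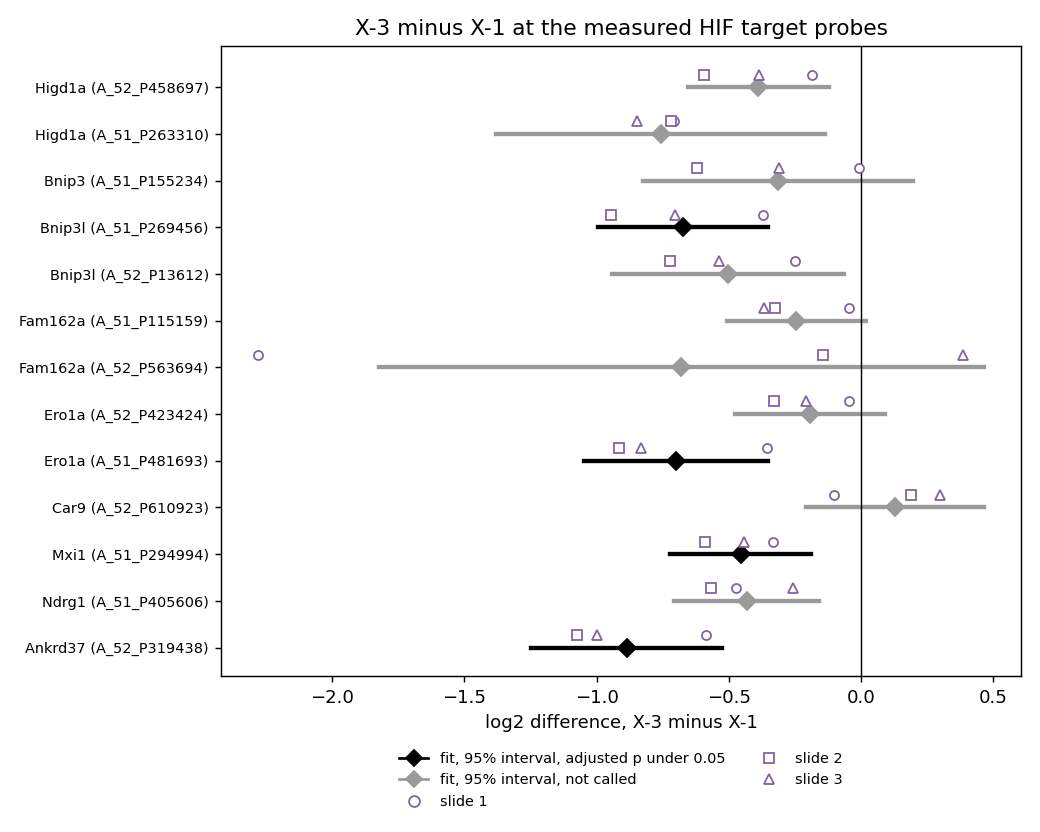
Difference X-3 minus X-1 in log2 units at the 13 measured probes; diamonds and bars are the fit with its 95% confidence interval (black where adjusted p is under 0.05), open symbols are the differences on each slide. All fitted values but that of Car9 lie left of 0, and the slide 1 value of the second Fam162a probe, at −2.28, lies far from the other 2 slides.

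From high to low, the order of the groups was X-1, X-3 and control for 8 of the 9 genes by their means. Neighbouring X-1 and X-3 passed the test of their difference for Ankrd37, Bnip3l and Mxi1, and did not for Higd1a, Bnip3, Fam162a, Ero1a and Ndrg1, each by its brightest probe. Over 20 alternative settings, the deposited scores not among them, the call was lost in 6 for Ankrd37, in 10 for Bnip3l and in 14 for Mxi1. With the deposited scores Mxi1 lost its call too (adjusted p = 0.0595). For Car9 the order was X-3, X-1 and control, with X-3 and X-1 not separated.

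Beyond these genes, 46 other genes of the HIF pathway were listed and 44 passed the filter; Slc2a3 and Epo did not. With X-3, 36 of the 44 rose, 4 fell and 4 did not pass the test, with a median of 1.72. Of all tested probes, 28.5% rose and 25.5% fell with X-3. With X-1, 35 of the 44 rose, 4 fell and 5 did not pass, with a median of 2.13, where 28.1% of all tested probes rose and 26.7% fell. Among the subunits and oxygen sensors, Hif1a rose by 0.92 ± 0.20 with X-3 and 1.16 ± 0.20 with X-1, and Epas1 was lower, at −1.11 ± 0.19 with X-3 and −0.999 ± 0.19 with X-1. The sensors Egln3 and Egln1, themselves HIF targets, rose by 6.07 ± 0.13 and 3.09 ± 0.17 with X-3 and by 6.55 ± 0.13 and 3.12 ± 0.17 with X-1. Arnt probes disagreed: the brightest was at −1.31 ± 0.47 with X-3 and −1.30 ± 0.47 with X-1, while 2 of the other 3 rose with both compounds.

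The secreted factors Vegfa (blood vessel growth) and Adm (a vasodilator peptide) rose by 2.33 ± 0.16 (Vegfa) and 2.60 ± 0.15 (Adm) with X-3 and by 2.63 ± 0.16 and 3.58 ± 0.15 with X-1. These are values of the brightest probes. The other Vegfa probes rose more, by 3.54, 3.73 and 3.25 with X-3 and by 3.94, 3.73 and 3.59 with X-1. The glucose transporter Slc2a1 rose by 3.37 ± 0.22 with X-3 and 3.67 ± 0.22 with X-1, the histone demethylase Kdm3a by 1.33 ± 0.15 with X-3 and 1.72 ± 0.15 with X-1, and the collagen hydroxylase P4ha1 by 1.38 ± 0.13 with X-3 and 1.74 ± 0.13 with X-1. Other Kdm3a probes rose by 3.58 and 1.20 with X-3 and by 3.64 and 1.90 with X-1, and another P4ha1 probe by 0.91 with X-3 and 1.64 with X-1. Against the majority, Pfkfb4 was at −0.56 ± 0.15 with X-3 and −0.74 ± 0.15 with X-1 and Stc2 at −1.28 ± 0.16 with X-3 and −1.10 ± 0.16 with X-1. The Stc2 levels were near background, with means of −5.48 with X-3 and −5.30 with X-1. Its probe was well above background on 2 X-3, 2 X-1 and 3 control arrays, so the size of its fall is uncertain. Between the compounds, 5 of the 44 were lower in X-3 (Adm, Ak4, Gbe1, Hilpda and Plod2) and 0 higher, with differences between −1.39 for Ak4 and −0.68 for Hilpda. Of all tested probes, 3.33% were lower in X-3 and 5.74% higher. The other P4ha1 probe was also lower in X-3, at −0.73 (adjusted p = 0.0418), while its brightest probe did not pass (adjusted p = 0.107). Of the partner genes named earlier, Ero1b (−0.53, adjusted p = 0.0346) and Bcl2 (−0.625, adjusted p = 0.0415) were lower in X-3 at their brightest probes, and 0 were higher. Other probes of Ero1b and Bcl2 did not pass.

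**Figure D5:**
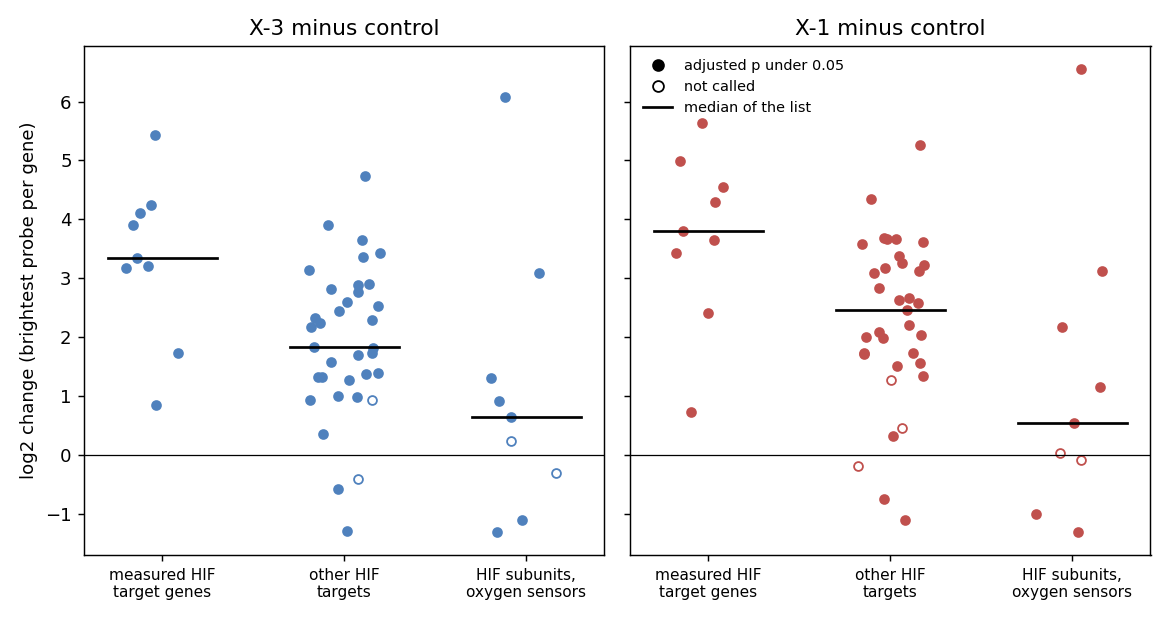
Change from control in log2 units for the 9 measured HIF target genes, 35 other HIF targets and 9 HIF subunits and oxygen sensors, each point 1 gene by its brightest probe, X-3 left and X-1 right; filled points have adjusted p under 0.05 and the line is the median of the list. The medians are 3.35, 1.84 and 0.64 with X-3 and 3.81, 2.47 and 0.56 with X-1.

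The genes outside the 9 whose profile over the 9 arrays was nearest to each target were found among 13550 genes by the root mean square difference of centred log2 levels. Mxi1 and Ndrg1 were nearest to each other (0.10). Outside the 9 genes, Tmem45a, itself on the HIF pathway list, was nearest to both Mxi1 (0.12) and Ndrg1 (0.13). Bnip3l was nearest to Ppp1r14c (0.06), Car9 to Senp3 (0.09), Fam162a to Invs (0.09), Ankrd37 to Gsta2 (0.12) and Higd1a to Hipk3 (0.14). Outside the 9 genes, Bnip3 and Ero1a had none closer than Prl2c5 (0.21) and AF366264 (0.23). These are likenesses over 3 groups of arrays and carry no test.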

How the data were processed

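Total RNA of 9 cultures was hybridised to one-colour Agilent arrays, 3 per group, described in the design text as independent experiments. The deposited scanner files hold a processed intensity for each spot, background-subtracted by Agilent Feature Extraction per the file headers (10.5.1.1 for replicate 1 and 10.7.3.1 for the others; the submitters' processing notes name 9.1). A table of the whole series was also deposited; its values are scores with mean 0 within an array, used here as an alternative alone. Gene names came from the replicate 1 files and RefSeq tables.

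Intensities were averaged over replicate spots (245 probes), outlier probes (214) were left out, log2 was taken and each array's 75th percentile subtracted. Of 40960 probes, 25288 were well above background on all 3 arrays of a group. R 4.3.3 and limma 3.58.1 fitted 1 model of the 3 groups to all 9 arrays, with Benjamini-Hochberg adjustment over all kept probes, tested on simulated data. A gene is counted by its brightest kept probe. The number of arrays limits the precision.

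Same-numbered replicates share a slide per the file headers. Deviations of same-numbered arrays correlated at 0.17, 0.06 and 0.20 for X-3 with control, at 0.53, 0.29 and 0.29 for X-1 with control, and at −0.12, −0.23 and 0.12 for X-3 with X-1. Position on the slide and group cannot be told apart. The normexp alternative used median signals, since mean signals were not in all files used here. All 10 genes are named; from the lists, partner genes and a set of fixed pathway genes are named, plus those called against the majority or between the compounds (those between the compounds were chosen after their values were seen). The members and gene lists were chosen with earlier results of these data known. Other alternatives were other scalings, the deposited scores, no filter, other probe summaries, blocks, fewer groups and leaving out arrays or slide 1. A listed partner gene is not reported here.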

Additional observations from a re-analysis of the deposited data

How the results depend on the processing

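Against control, all 9 measured HIF target genes kept their call under every alternative run except for Car9: with spike-in scaling of replicates 2 and 3 it was at −0.15 with X-1, the opposite sign, and missed the threshold with X-3, and with normexp it missed it with X-1 (0.42, adjusted p = 0.0644). Leaving out 1 array in turn left 9 of 9 genes called with each compound, 36 to 40 of the other HIF pathway genes with X-3 and 37 to 39 with X-1. Over all probes, calls of rises and falls split as 7216 and 6458 for X-3 and 7103 and 6749 for X-1, against 4879 and 7369 for X-3 and 5085 and 7490 for X-1 with median scaling, where the median of all probes was −0.14 for X-3 and −0.11 for X-1, and against 3122 and 12196 for X-3 and 2475 and 14802 for X-1 with spike-in scaling.

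The direct comparison, X-3 minus X-1, depended on the setting. The number of the 9 genes called was 3, and it was 0 with median scaling, 1 with spike-in scaling of replicates 2 and 3, 0 without the filter on dim probes, 5 with the mean of a gene's probes, 7 without slide 1 (the same arrays as the spike-in setting), 1 with the 2 groups alone and between 0 and 4 with 1 array left out. None of these calls on the 9 genes was higher in X-3. Mxi1 also missed the threshold with quantile normalization (adjusted p = 0.0573), with normexp (adjusted p = 0.0619) and with the deposited scores (adjusted p = 0.0595). For the other pathway genes the count of 5 became 3 with median scaling, 8 with the mean of probes, 27 without slide 1, of which 3 were higher in X-3, and between 1 and 14 with 1 array left out, of which 1 of the 14, without X-3 replicate 1, was higher. For all probes the count of 2293 became 680 with median scaling, 3661 with spike-in scaling (3156 higher and 505 lower), 1158 with normexp, 651 without the filter, 9735 without slide 1 (4748 higher and 4987 lower), 666 with 2 groups alone and between 499 and 4924 with 1 array left out. The second Fam162a probe, at −0.68, turned to 0.32 with spike-in scaling, 0.12 without slide 1 and ran between −1.085 and 0.000601 with 1 array left out, the highest without X-3 replicate 1. The cause of these shifts was not tested.

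With the replicate block, 2 of the 9 genes were lower in X-3 (Mxi1 lost its call at adjusted p = 0.0611), the second Higd1a probe passed at adjusted p = 0.0265, and no other call on these genes changed. Depth is not defined for arrays: Car12 stayed near background and the direct comparison rests on 3 arrays a group.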
